A study of Homo sapiens with 17 samples.

Results

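Genes of formative and primed pluripotency, 10 in all, were followed through 17 lists of CUT&Tag summits from H1 cells, an established human embryonic stem cell line. They were OTX2, ZIC2, ZIC5, DNMT3B, DNMT3A, SFRP2, THY1, CD24, SALL2 and ETV1, that is 10 of the 20037 protein-coding genes of the RefSeq table (GRCh38.p14). A gene was given every summit from 20 kb before to 20 kb after its annotated ends. CUT&Tag uses an antibody to direct a transposase to chromatin, and a summit is the base at which a called peak is highest. The H3K4me1 and H3K27ac libraries, 12 in all, came from cells with shHNRNPU#1, shHNRNPU#2 (hairpins against HNRNPU) or shLUC (the luciferase control), with 2 repeats of each hairpin and antibody. Of the 3 POLIIS2P libraries 1 was from shHNRNPU#1 cells and 2 from shLUC cells, and the 2 HNRNPU libraries were from untransfected cells. Hairpins were delivered by virus with puromycin selection, and all cells were kept in mTeSR1 on Matrigel. Whether the repeats were separate cultures is not stated, so a p-value here measures only the spread between libraries, which may be technical.

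Pluripotent cells pass from a naive state through a formative state to a primed state before they enter a lineage. OTX2 and the ZIC proteins are transcription factors that act at the enhancers of the later states, DNMT3A and DNMT3B place new methyl groups on DNA, and THY1 and CD24 are surface proteins used to sort primed human cells. H3K4me1 is a mark of enhancers, including ones that are not active. H3K27ac marks active enhancers and promoters. HNRNPU is an RNA-binding protein of the nuclear matrix, and POLIIS2P is the labels' name for the remaining antibody.

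The lists held 147145 to 214333 summits for H3K4me1, 40487 to 90914 for H3K27ac, 34649 and 35526 for HNRNPU and 79949 to 87456 for POLIIS2P. Read depth is unknown. Each summit carries a score on a −log10 scale, which was turned into a percentile within its own list, and the level of a gene is the percentile of the strongest summit in its window, with 0 for no summit. A level is a rank within 1 list, so it does not measure the amount of a mark, and in bulk chromatin fewer cells with a mark and less of it per cell cannot be told apart. For the 4 shLUC histone libraries the titles and the names inside the lists give opposite antibodies, and the names inside the lists were followed. The 20000 strongest summits of each list were compared in pairs of libraries. The share within 250 bp of one in the other list was averaged over both directions. The shLUC libraries named H3K4me1 in this way shared 68.2% to 73.5% with H3K4me1 libraries of shHNRNPU cells and 18.2% to 25.8% with H3K27ac libraries. For the shLUC libraries named H3K27ac these shares were 20.9% to 24.3% and 46.4% to 55.6%. The lists record where HNRNPU, histone marks and POLIIS2P were found and do not measure the knockdown. At the HNRNPU gene the H3K27ac level ran from 90.9 to 99.2 under the hairpins against it, which overlapped the shLUC values of 99.03 and 99.1.

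The sequences around 5 transcription starts are printed because they show how much the starts of these genes differ in CG content and in the marks that fall on them. They are RefSeq sequences of GRCh38.p14 in the direction of transcription, from 250 bases before a start to 50 after it, and capitals mark each CG, the pair of bases that DNMT3A and DNMT3B methylate. The start shown is the one of each gene with the most libraries holding a summit inside it, or tied for the most.
ZIC2, chr13:99981534-99981833, plus strand: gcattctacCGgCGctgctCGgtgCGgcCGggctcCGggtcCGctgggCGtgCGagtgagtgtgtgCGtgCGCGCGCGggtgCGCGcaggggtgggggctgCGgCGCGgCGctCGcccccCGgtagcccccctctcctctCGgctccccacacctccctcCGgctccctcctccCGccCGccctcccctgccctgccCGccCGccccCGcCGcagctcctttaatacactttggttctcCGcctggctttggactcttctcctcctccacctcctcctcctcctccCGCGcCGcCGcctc
CD24, chr6:106975416-106975715, minus strand: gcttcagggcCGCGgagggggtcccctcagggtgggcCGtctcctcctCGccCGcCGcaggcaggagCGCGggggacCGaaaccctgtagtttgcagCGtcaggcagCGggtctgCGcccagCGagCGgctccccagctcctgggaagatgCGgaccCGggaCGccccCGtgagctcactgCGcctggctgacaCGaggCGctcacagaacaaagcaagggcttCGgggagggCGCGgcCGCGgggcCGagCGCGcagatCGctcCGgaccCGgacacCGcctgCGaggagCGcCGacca
DNMT3A, chr2:25342541-25342840, minus strand: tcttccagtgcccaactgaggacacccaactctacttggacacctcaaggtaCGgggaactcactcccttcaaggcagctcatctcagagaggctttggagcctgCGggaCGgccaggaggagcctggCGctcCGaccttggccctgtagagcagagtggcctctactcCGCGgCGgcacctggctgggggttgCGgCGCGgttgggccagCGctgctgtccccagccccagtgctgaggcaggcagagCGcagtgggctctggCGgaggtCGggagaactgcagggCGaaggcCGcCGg
OTX2, chr14:56805618-56805917, minus strand: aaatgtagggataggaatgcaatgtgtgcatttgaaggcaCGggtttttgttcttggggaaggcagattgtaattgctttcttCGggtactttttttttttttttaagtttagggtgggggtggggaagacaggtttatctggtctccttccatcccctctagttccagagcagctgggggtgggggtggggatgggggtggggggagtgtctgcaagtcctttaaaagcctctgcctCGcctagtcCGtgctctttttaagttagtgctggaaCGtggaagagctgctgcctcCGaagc
DNMT3B, chr20:32779602-32779901, plus strand: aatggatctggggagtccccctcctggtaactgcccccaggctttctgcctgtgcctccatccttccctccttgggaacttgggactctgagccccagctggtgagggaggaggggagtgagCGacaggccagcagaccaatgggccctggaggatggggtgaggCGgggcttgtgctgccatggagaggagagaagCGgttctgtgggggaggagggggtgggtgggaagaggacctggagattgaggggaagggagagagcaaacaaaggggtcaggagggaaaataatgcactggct
The stretches at ZIC2 and CD24 hold 35 and 36 CG pairs, against 18 at DNMT3A, 6 at OTX2 and 3 at DNMT3B. The median over 22199 promoter entries of 15843 protein-coding genes was 21. The DNMT3B stretch is at the only start these entries hold for that gene, 32779852. That start lies inside the gene, which is annotated from chr20:32762385, so the sequence at its 5′ end is not shown. OTX2 has another start further upstream, at 56810479, whose stretch holds 9 CG pairs and no summit in any library. The ZIC2 stretch held an H3K27ac summit in 5 of 6 libraries, between 225 and 165 bases before the start, and no H3K4me1 summit in any of 6. The CD24 stretch held an H3K27ac summit in all 6 and an H3K4me1 summit in 2 of 6. At DNMT3B and at DNMT3A the H3K4me1 summit lay inside the stretch in 6 of 6 libraries, 140 to 136 bases before the start at DNMT3B and 90 to 60 before it at DNMT3A. The OTX2 stretch held neither histone mark in any library but held an HNRNPU summit in 1 of 2 and a POLIIS2P summit in 2 of 3.

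The promoter table has 24 entries for 9 of the 10 genes and none for THY1. The GC box (GGGCGG on either strand) was in 13 of the 24 entries, the CCAAT box (CCAAT on either strand) in 11 and the TATA box (TATAAA on either strand) in 0. Over all 22199 entries the shares were 56.3%, 34.7% and 9.47%. Entries of 1 gene overlap, so the 24 are not independent.

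The strongest H3K4me1 signal of the group lay at DNMT3B, OTX2 and DNMT3A, and the weakest at CD24. DNMT3B reached a percentile of 99.9 or above in each of 6 libraries, a mean of 99.93 ± 0.02 (SD, n = 6), which equals or exceeds 99.6% of all genes. DNMT3A followed with 99.58 ± 0.13 and OTX2 with 99.57 ± 0.39 (SD, n = 6 each). SALL2, a zinc finger factor, had a mean of 98.52 and ETV1, an ETS factor, one of 97.36. In this order DNMT3B and ETV1 were the only genes whose range over the 6 libraries did not overlap that of the next gene. ZIC5 and ZIC2 came next with means of 93.8 and 93.03, followed by SFRP2, a secreted antagonist of WNT, with 88.3 and THY1 with 81.9. CD24 had 76.8 to 87.1 in 3 shHNRNPU libraries, 63.3 and 78.6 in the shLUC libraries and no summit in shHNRNPU#1 repeat 1. The median over the 10 genes was 95.57, against 86.67 over all protein-coding genes. Windows differ in length, from 45.0 kb at ZIC2 to 155 kb at DNMT3A, and a longer window holds more summits. The windows of ZIC2 and ZIC5 share 30.1 kb, so these neighbours often read the same summit.

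For H3K27ac the order was another one, with SALL2 and DNMT3B first and OTX2 last. SALL2 had 99.57 ± 0.19 and DNMT3B 99.01 ± 0.85 (SD, n = 6 each). CD24 came next with 95.08 ± 2.54, above ZIC2 with 90.99 ± 3.50 (SD, n = 6 each). ETV1, ZIC5 and DNMT3A had means of 88.8, 87.1 and 85.4, SFRP2 had 63.9 ± 24.7 and THY1 39.1 ± 25.1 (SD, n = 6 each). At OTX2 the shHNRNPU libraries read 0, 0, 71.4 and 28.5 and the shLUC libraries 0 and 28.2, so 3 of them held no H3K27ac summit in the window. Each gene from SALL2 down to THY1 overlapped the next in its range. The median over the 10 genes was 87.98, against 75.25 over all genes. At SALL2 the strongest H3K27ac summit of 4 libraries lay at about chr14:21511350-21511444, beside METTL3, a neighbouring gene whose start the window takes in.

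**Figure D1:**
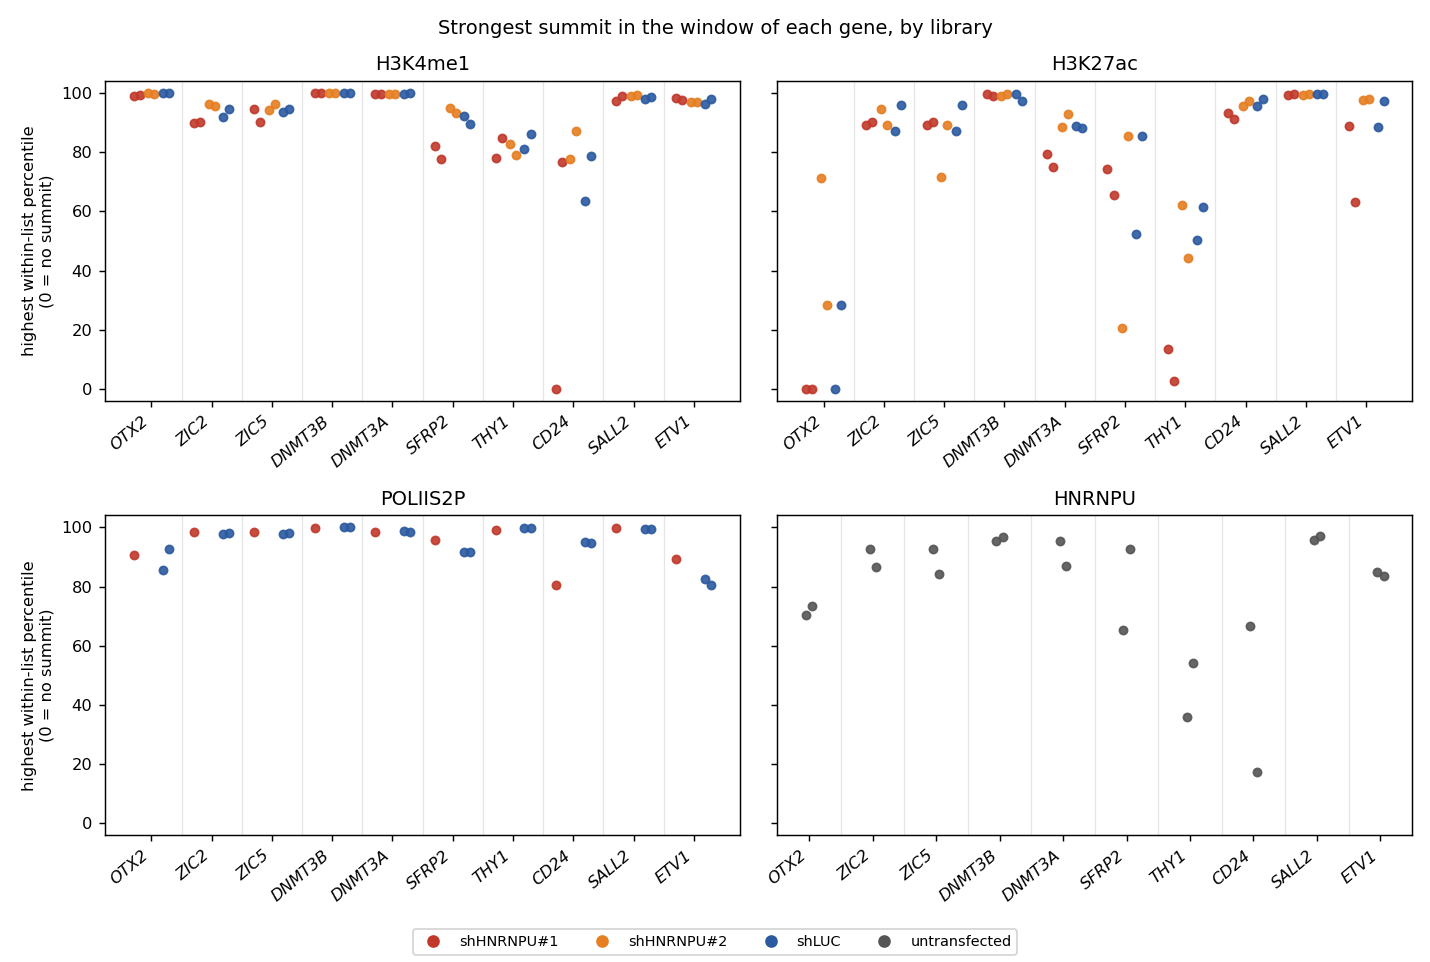
Percentile of the strongest summit in the window of each gene (vertical axis, 0 to 100, 0 for no summit) in every library, with 1 panel per antibody and colours for the hairpin or untransfected cells. H3K4me1 sits above 98 in every library at OTX2, DNMT3B and DNMT3A, while H3K27ac at OTX2 runs from 0 to 71.4.

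The marks were set against each other within shHNRNPU cells, where titles and list names agree, to ask at which genes the ranks of H3K27ac and H3K4me1 differ. At OTX2 the H3K4me1 levels were 98.9, 99.4, 99.9 and 99.6, and the H3K27ac levels were 0, 0, 71.4 and 28.5. No H3K27ac library reached the lowest H3K4me1 library. CD24 had the opposite order, with H3K27ac at 93.1, 91.2, 95.5 and 97.4 and H3K4me1 at 0, 76.8, 77.7 and 87.1. THY1 had H3K4me1 at 78.2 to 84.7 and H3K27ac at 2.81 to 62.3. The H3K27ac level was lower at OTX2, ZIC5, DNMT3B, DNMT3A and THY1 and higher at CD24, with no overlap of the 4 and 4 libraries by percentile. Over 19015 genes with a summit H3K27ac was lower without overlap at 36.9% and higher at 12.2%, so 5 and 1 of 10 are near those shares. The median difference was −9.66 percentile points for the 10 genes and −8.87 over all genes tested. Each of the 6 had p = 0.0286 in a two-sided exact permutation test, the smallest that 4 against 4 allows, and an adjusted p of 0.0581 (Benjamini-Hochberg over all genes). That was the smallest adjusted p of any of the 19015 genes, so 0 genes passed 0.05. The H3K27ac lists are shorter than the H3K4me1 lists, and the calls depend on how ranks are scaled. By rank from the top ZIC5 and THY1 overlapped, SALL2 became higher, and the count was 3 lower (OTX2, DNMT3B and DNMT3A) and 2 higher (CD24 and SALL2), beside 16% of all genes lower and 34.1% higher. At THY1 the H3K27ac ranks were 28389 to 47483 and the H3K4me1 ranks 23334 to 45131. With scores of at least 10 only, CD24 lost its call and the count became 8 lower and 0 higher. That cut kept 3867 to 12363 H3K27ac summits and 61717 to 107167 H3K4me1 summits in these libraries. No share of all genes is given at that setting, so the count is not a result about these genes.

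**Figure D2:**
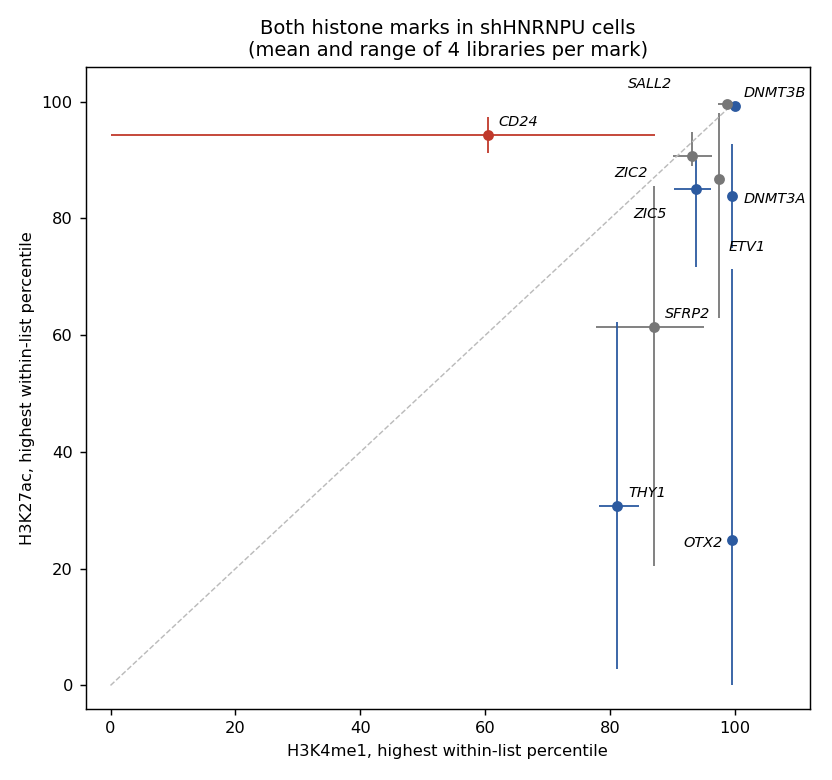
H3K27ac (vertical) against H3K4me1 (horizontal) in shHNRNPU cells, both as the highest within-list percentile, with the mean and the range of 4 libraries for each mark. Blue marks genes at which H3K27ac was lower in every library, red at which it was higher and grey those that overlapped by percentile (by rank ZIC5 and THY1 overlap and SALL2 is higher), and OTX2 and THY1 fall far below the dashed line of equal levels while CD24 lies above it.

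The position of the summits within each window differed from gene to gene. At OTX2 the H3K4me1 summit of all 6 libraries lay at chr14:56814701-56814724, at a mean percentile of 99.43 in shHNRNPU and 99.86 in shLUC cells. It was about 4233 bases before the upstream start of OTX2, 56810479, which is not the start of the printed stretch. No H3K27ac summit of any library fell at that site. A further H3K4me1 site was in 6 of 6 at chr14:56794287-56794346, past the other end of the gene, with means of 85.8 and 82.2.

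At ZIC2 the H3K27ac site chr13:99981483-99981619 was in 6 of 6 libraries, 233 bases before the start, with means of 85.0 in shHNRNPU and 91.4 in shLUC cells. In shHNRNPU#2 repeat 1 the strongest H3K27ac summit of ZIC2 lay elsewhere, about 16.1 kb past the start. H3K4me1 had no summit within 1000 bp of that start in any library. Its sites lay on both sides, at chr13:99975817-99975969 between ZIC5 and ZIC2 (means 92.2 and 92.99) and at chr13:99997248-99997425, 15552 bases past the start (means 90.2 and 85.3). The H3K27ac level of ZIC5, a gene read in the opposite direction from ZIC2, came from the summit at the ZIC2 start in all 6 libraries, and at the starts of ZIC5 itself H3K27ac was 0 to 31.8.

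At CD24 2 H3K27ac sites were in 6 of 6 libraries. They were chr6:106974496-106974614 (means 89.9 in shHNRNPU and 96.7 in shLUC cells) and chr6:106975576-106975708 (78.1 and 88.06), both within 1000 bp of a start. The H3K4me1 site found in the most libraries was chr6:106979530-106979582, 3929 bases before the start, in 3 of 4 and 2 of 2 libraries. CD24 has related copies elsewhere in the genome, so reads may be split or misplaced there.

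At DNMT3B the site chr20:32807838-32807931, near the 3′ end of the gene, carried H3K27ac in 6 of 6 libraries (means 99.3 and 98.5) and H3K4me1 in 6 of 6 (99.91 and 99.95). It also held an HNRNPU summit in both repeats and a POLIIS2P summit in 3 of 3. At the only listed start, which lies inside the annotated gene, H3K4me1 was in 6 of 6 at chr20:32779712-32779716 with means of 92.2 and 90.9. Near the annotated 5′ end, chr20:32762385, H3K4me1 was in 6 of 6 at chr20:32761768-32761776 (62.9 and 60.0). There H3K27ac was in 3 of 4 shHNRNPU and 2 of 2 shLUC libraries at chr20:32761840-32761898 (51.1 and 80.9). The window of DNMT3B takes in the start of MAPRE1 and part of COMMD7, and the H3K27ac site chr20:32820131-32820251 (6 of 6) lies beyond DNMT3B.

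At DNMT3A H3K4me1 was strongest near the 3′ end of the gene, at chr2:25228917-25228923 (6 of 6, means 99.54 and 99.67), where H3K27ac was also in 6 of 6 but at 58.6 and 61.2. The strongest H3K27ac site was inside the gene at chr2:25315132-25315332 (6 of 6, 83.9 and 88.5). Of 66 H3K4me1 sites in this window 23 were in all 6 libraries, more than at any of the other 9 genes.

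At SALL2 both marks shared a site 2374 and 2351 bases past the start, with H3K4me1 at chr14:21534744-21534751 (means 98.6 and 96.6) and H3K27ac at chr14:21534745-21534796 (98.9 and 98.8). At ETV1 H3K4me1 was strongest inside the gene at chr7:13981229-13981264 (97.4 and 96.8). H3K27ac was in 6 of 6 at 2 sites. The stronger lay deep inside the gene at chr7:13920398-13920441 (82.7 and 92.9). It gave the H3K27ac level of ETV1 in every library except shHNRNPU#1 repeat 2, and H3K4me1 was there in 6 of 6 too (88.4 and 96.6). The other lay beside 1 of the starts at chr7:13989838-13990024 (73.1 and 68.7). SFRP2 had a single H3K27ac site in 6 of 6, at chr4:153789997-153790421, 1126 bases before the start (46.8 and 65.8). THY1 had no H3K27ac site in all 6 libraries, and 4 of its 18 H3K4me1 sites were in all 6.

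**Figure D3:**
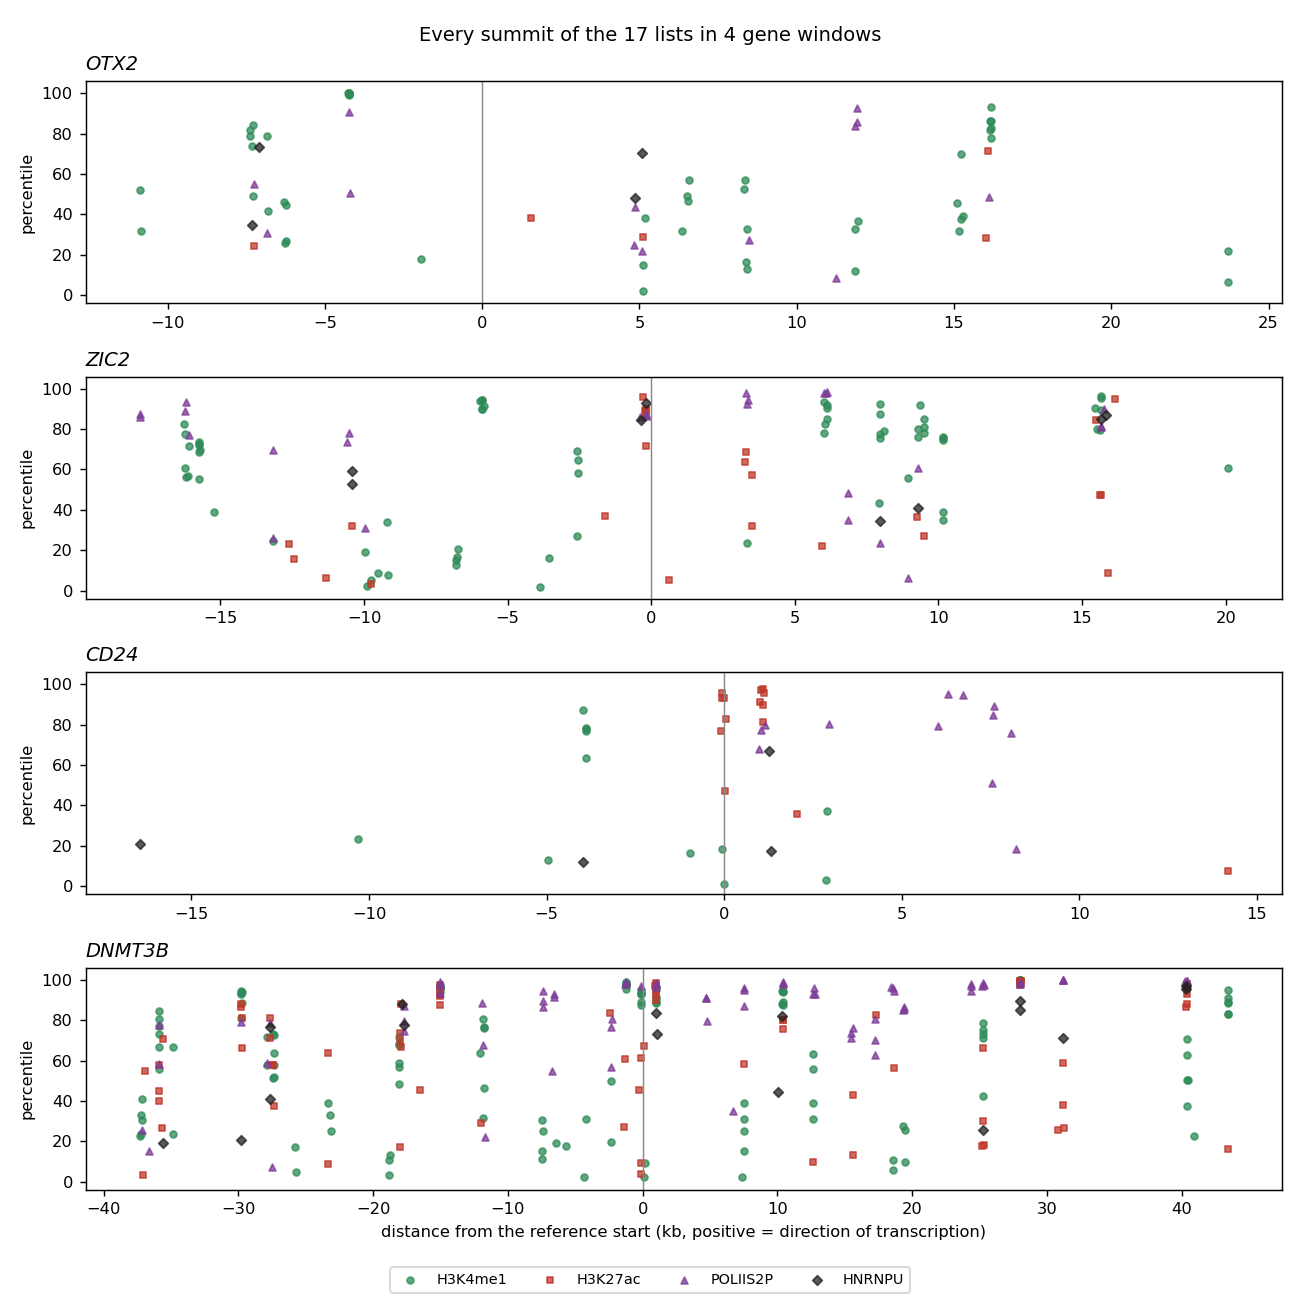
Every summit of the 17 lists in the windows of OTX2, ZIC2, CD24 and DNMT3B, placed by distance in kb from the most upstream start of the gene in the promoter table (horizontal) and by within-list percentile (vertical), with colour and shape for the antibody. The H3K4me1 summits of OTX2 crowd near the top about 4 kb before the start with no H3K27ac beside them, and the H3K27ac summits of ZIC2 and CD24 crowd at the starts.

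The first knockdown comparison asked whether H3K4me1 at these genes differed between shHNRNPU and shLUC cells. At 9 of the 10 the libraries of the conditions overlapped, and at DNMT3B H3K4me1 was lower in shHNRNPU cells by a small margin. The DNMT3B levels were 99.91, 99.91, 99.93 and 99.91 with the HNRNPU hairpins, against 99.93 and 99.96 with shLUC. The difference was −0.03 percentile points, and by rank from the top (137, 143, 118 and 195 against 120 and 69) the libraries overlapped. The background was 8.19% of 18872 genes lower and 7.11% higher without overlap, so 1 lower of 10 and 0 higher is near the background. The exact permutation test (two-sided, 4 against 2) gave p = 0.0667 for DNMT3B, the smallest this design allows, and an adjusted p of 0.904. The other 9 had p from 0.267 to 1.0. The median difference was −0.19 for the 10 genes and −0.23 over all genes.

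Individual genes showed the spread behind this. At ZIC2 the levels were 89.99 and 90.1 with shHNRNPU#1, 96.4 and 95.5 with shHNRNPU#2 and 91.8 and 94.4 with shLUC. At SFRP2 they were 82.1 and 77.8, 94.99 and 93.1, and 92.3 and 89.4. By percentile shHNRNPU#1 lay below and shHNRNPU#2 above both shLUC libraries at these 2 of 10 genes, beside 3.56% of all genes. By rank from the top neither split held. At ZIC2 shHNRNPU#1 repeat 1 ranked 14727 and shLUC repeat 1 14737, and at SFRP2 shHNRNPU#2 repeat 2 ranked 14708 and shLUC repeat 1 13835. For H3K27ac 0 of the 10 genes had such a split by percentile, beside 3.98% of all genes. With 1 hairpin at a time H3K4me1 did not overlap shLUC at 4 genes with either hairpin, beside 41.7% of all genes for shHNRNPU#1 and 34.9% for shHNRNPU#2, and H3K27ac at 3 with either, beside 43.3% and 31.8%. The largest mean difference was −10.57 at CD24, where 1 library held no summit, and its p was 0.867 (exact permutation).

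With the shLUC antibodies taken from the titles the result was another: H3K4me1 did not overlap at 6 of the 10 genes, higher in shHNRNPU cells at OTX2, DNMT3B, DNMT3A and THY1 and lower at CD24 and SALL2. That reading called 62.5% of all genes.

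For H3K27ac the libraries of shHNRNPU and shLUC cells overlapped at all 10 genes. Over 18573 genes H3K27ac was lower without overlap at 11.3% and higher at 2.08%. The median difference was −3.53 percentile points for the 10 genes and −3.2 over all genes. The smallest p of the 10 was 0.2 at SALL2 (two-sided exact permutation, adjusted p = 0.997), whose levels were 99.4, 99.7, 99.3 and 99.6 against 99.8 and 99.7. At THY1 the levels were 13.6, 2.81, 62.3 and 44.2 against 50.2 and 61.6, a difference of −25.2. At ETV1 they were 88.7 and 63.02 with shHNRNPU#1, 97.5 and 97.99 with shHNRNPU#2 and 88.4 and 97.3 with shLUC. The H3K27ac lists of shHNRNPU#1 cells were the shortest, with 40487 and 51655 summits against 62449 and 90914 in shLUC cells, and the part of list length in these levels was not tested. By title H3K27ac did not overlap at 8 of 10 genes, 6 lower and 2 higher, and that reading called 59.7% of all genes.

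Within 1000 bp of a start, a window added after the data were seen, 2 of the 9 genes with a listed start had lower H3K27ac in shHNRNPU cells without overlap. They were DNMT3A and SALL2. At DNMT3A the summits belong to a site at chr2:25251422-25251775, 533 bases past a start inside the gene, except where a library held none there. The DNMT3A levels were 35.3, 0, 35.6 and 61.1 with the HNRNPU hairpins, all below the shLUC levels of 79.5 and 81.2, a difference of −47.4. At SALL2 they were 93.3, 95.8, 97.8 and 96.1 against 99.6 and 99.7, a difference of −3.87. The order held by rank from the top at SALL2, where the best shHNRNPU rank was 1674 and the worst shLUC rank 320, and at DNMT3A, where these were 33095 and 17075. Both had p = 0.0667 (two-sided exact permutation), the smallest possible. Of 10463 genes with an H3K27ac summit at a start 11.8% were lower and 0.774% higher, so 2 of 9 is not set apart from them. By title the shLUC values at SALL2 were 0 and 38.97, below all 4 shHNRNPU libraries, and at DNMT3A 95.2 and 85.2, above them.

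At the other starts H3K27ac overlapped between the conditions. ZIC2 read 89.3, 90.05, 71.7 and 89.0 against 87.0 and 95.9, and CD24 read 93.1, 91.2, 95.5 and 97.4 against 95.6 and 97.8. Both starts held the mark in every library. SFRP2 read 0, 0, 7.06 and 85.6 against 52.5 and 70.04, with 1 shHNRNPU#2 library above both shLUC libraries. H3K4me1 within 1000 bp of a start was called at 0 of the 9 genes, beside 5.42% of 12354 genes lower and 5.15% higher. Over both conditions H3K27ac was at the start in all 6 libraries at 5 of 9 genes, against 27.2% of 15843 genes, and H3K4me1 at 2 of 9, against 43.4%.

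**Figure D4:**
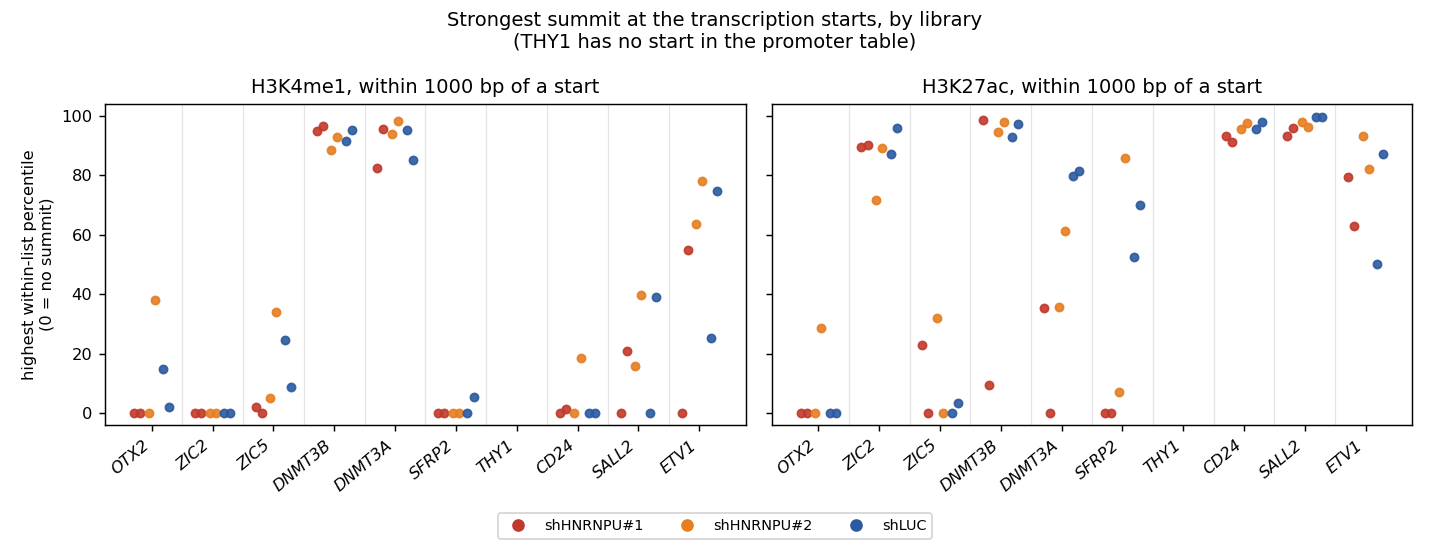
Highest within-list percentile within 1000 bp of a transcription start (vertical axis, 0 for no summit) for H3K4me1 and H3K27ac in each histone library, by hairpin. The 4 shHNRNPU libraries lie below both shLUC libraries for H3K27ac at DNMT3A and SALL2, and H3K4me1 is at most 18.6 at the starts of ZIC2, SFRP2 and CD24.

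Sites of a single condition were few. When summits within 250 bp of each other were joined, the windows held 213 H3K4me1 sites, of which 65 (30.5%) were in all 6 libraries, beside 25.4% of 310458 sites genome-wide. The 2 H3K4me1 sites in both shLUC libraries and no shHNRNPU library were at OTX2 (chr14:56817303-56817304, percentiles 41.5 and 78.7) and DNMT3A (chr2:25358660-25358801, 7.27 and 21.2). None was in all 4 shHNRNPU and no shLUC library. The genome-wide shares were 1.28% and 0.577%. For H3K27ac the windows held 115 sites, 15 of them (13.0%) in all 6 libraries, beside 7.66% of 178613. The site seen in both shLUC libraries alone was at DNMT3A (chr2:25245715-25245782, percentiles 27.97 and 28.3), and none was seen in shHNRNPU cells alone, beside 1.93% and 0.227%. By title the counts were 51 H3K4me1 and 56 H3K27ac sites of a single condition, and no genome-wide share is given for that reading.

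Adding up the summits of H3K4me1 and H3K27ac avoids the question of which shLUC library carries which of them. In each of 4 shHNRNPU and 2 shLUC sets the summits of a window among the 20000 strongest of both libraries were added. DNMT3B held 13, 12, 11 and 11 against 13 and 16, and DNMT3A 11, 14, 14 and 12 against 12 and 11. ZIC2 held 2, 3, 5 and 6 against 3 and 3, and THY1 held 0 in every set. The sets overlapped at all 10 genes, beside 3.05% of 17202 genes lower and 2.38% higher.

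POLIIS2P was strong at DNMT3B, THY1 and SALL2. Its 3 libraries ranged from 99.9 to 99.97 at DNMT3B, 99.2 to 99.8 at THY1 and 99.4 to 99.7 at SALL2. The DNMT3B summit lay just past the end of the gene, at chr20:32811066-32811070. The THY1 summit, at chr11:119416966-119417015, lay near the lower-coordinate end of the gene, where H3K27ac was found in 1 shHNRNPU and 1 shLUC library. At ZIC2 the strongest summit lay about 6 kb past the start (97.7 to 98.4), beyond the end of the gene, and ZIC5 read the same one.

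With 1 shHNRNPU#1 library there is no test, and the 2 shLUC libraries give the only measure of spread. POLIIS2P at CD24 was 80.4 with shHNRNPU#1 and 94.98 and 94.8 with shLUC, a difference of −14.5 where the shLUC libraries differed by 0.17. These values came from different places. The shHNRNPU#1 summit lay inside the gene at chr6:106972670, and the shLUC summits past its 3′ end at 106969329 and 106968911. ETV1 was 89.5 against 82.5 and 80.4, and SFRP2 95.9 against 91.8 and 91.5. The remaining differences ran from −0.53 at THY1 to 1.48 at OTX2. The shHNRNPU#1 library was above both shLUC libraries at 5 genes and below both at 4, and at OTX2 it lay between them, with ZIC2 and ZIC5 reading the same summit. These shares stood beside 32.1% above and 39.5% below over 17062 genes. The median difference was 0.43 for the 10 genes and −0.13 over all genes.

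At the starts POLIIS2P gave values of its own. Within 1000 bp of a start CD24 read 68.1 with shHNRNPU#1 and 80.03 and 77.2 with shLUC, again lower. DNMT3A read 89.8 against 80.4 and 82.6, and OTX2 43.6 against 21.6 and 24.8, both higher with shHNRNPU#1. DNMT3A over its whole window had the opposite order, 98.3 against 98.9 and 98.33. The starts of 7 of the 9 genes held POLIIS2P in 3 of 3 libraries, and 53.8% of all genes with a listed start did. SFRP2 held it in 1 library (46.6) and SALL2 in 2 (27.4 and 29.4).

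HNRNPU itself was found in untransfected cells at 9 of the 10 genes, counting summits of repeat 1 with a repeat 2 summit within 250 bp, against 70% of all genes. THY1 was the exception, with 1 summit in each repeat at different places. SALL2 and DNMT3B had the highest levels, 95.7 and 97.1 at SALL2 and 95.4 and 96.8 at DNMT3B. The repeat 1 value of SALL2 came from chr14:21511400, beside METTL3. A site of both repeats inside SALL2, at chr14:21526572 and 21526520, had 95.5 and 97.1. Within 1000 bp of the SALL2 start HNRNPU read 68.1 and 49.2. Next in level were DNMT3A (95.3 and 86.97), ZIC2 (92.7 and 86.7) and ZIC5 (92.7 and 84.3), then ETV1 with 84.9 and 83.4. SFRP2 differed between the repeats, with 65.4 and 92.8, and OTX2 had 70.4 and 73.4. The lowest mean was that of CD24, with 66.7 and 17.5. DNMT3B had the most sites of both repeats, 6, of which the strongest (95.4 and 96.8) lay past the gene beside MAPRE1, 40294 bases from the listed DNMT3B start. Within 1000 bp of a listed start 7 of 9 genes held such a site, against 45.3% of 15843 genes. DNMT3B was not among the 7, but its only listed start lies inside the gene. It held a site of both repeats at chr20:32762122 and 32761989 (77.9 and 88.3), near the annotated gene start 32762385. The sites were 190 bases before the start at ZIC2 (92.7 and 84.3) and 12 before the most upstream start at DNMT3A (95.3 and 71.2). At OTX2 the site was 254 bases after the downstream start, 56805667 (70.4 and 48.2). With a minimum score of 10 the count in the windows was 6 of 10, and no share of all genes is given at that setting.

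Of the 23 distinct HNRNPU sites of the windows, 19 had a POLIIS2P summit within 500 bp in 3 of 3 libraries and 0 had none, where of all 17226 HNRNPU sites 64.2% had one in 3 of 3 and 15.6% had none. H3K27ac was within 500 bp in 6 of 6 libraries at 10 sites and in none at 2, beside 32.8% and 14.5% of all sites. H3K4me1 was there in 6 of 6 at 13 and in none at 3, beside 66.0% and 5.94%. Whether these 23 sites differ from the rest was not tested. The 3 without H3K4me1 were at the starts of ZIC2, CD24 and ETV1, and each held H3K27ac in 6 of 6. The 2 without H3K27ac were both in DNMT3A, at chr2:25252496 (H3K4me1 in 1 of 6) and chr2:25259837 (6 of 6).

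Other genes of these states were counted in the same way, beside the background of 7.11% of all genes higher and 8.19% lower for H3K4me1 and 2.08% and 11.3% for H3K27ac. Of 13 further formative and primed genes H3K4me1 was higher without overlap in shHNRNPU cells at 1 (PODXL, a primed-cell surface sialomucin, 99.97 to 99.99 against 99.95 and 99.97) and lower at 1, and H3K27ac at 0 in either direction. Their median levels were 96.46 for H3K4me1 and 71.59 for H3K27ac. FGF5, a formative growth factor, had no H3K27ac summit in any of 6 libraries. Of 6 other DNA methylation genes, 1 did not overlap and was higher for H3K4me1 (TET1, which oxidises methylated cytosine, 99.0 to 99.6 against 98.8 and 98.9) and 0 were called for H3K27ac. Of 10 naive genes, 0 were called for H3K4me1, and H3K27ac was higher at 1 and lower at 1 (DPPA5, 0 to 63.4 against 73.4 and 80.1). The naive genes had median levels of 87.67 and 52.75.

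The label of the cells was checked with marker genes. Of 6 pluripotent markers 5 were in the table (TDGF1 was not matched), with a median H3K27ac level of 85.17. The medians were 52.26 for 3 neural, 3.54 for 3 mesoderm, 8.48 for 3 endoderm and 0.79 for 3 trophoblast markers. The neural marker NES was high, with H3K27ac at 86.5 to 98.9 in shHNRNPU and 97.6 to 98.4 in shLUC cells. H3K4me1 did not set the lists apart, with medians of 96.0 for the pluripotent, 93.26 for the neural and 97.48 for the mesoderm markers. For the endoderm and trophoblast markers they were 86.76 and 94.43. For H3K27ac 0 of the 12 lineage markers were called in either direction, and for H3K4me1 1 trophoblast marker was lower. Among the 5 pluripotent markers, and beside that same background, the H3K27ac libraries did not overlap at 2 and the H3K4me1 libraries at 1. H3K27ac was higher at NANOG (86.5 to 92.5 against 70.9 and 81.04) and lower at SALL4 (84.4 to 96.5 against 98.25 and 98.33), and H3K4me1 was lower at SOX2 (97.6 to 98.8 against 98.9 and 98.97).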

How the data were processed

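The authors deposited 1 list of peak summits per library, in the layout that MACS2 writes, and its score was taken to be a −log10 q-value or p-value. Histone lists began at a score of 2.00 or 2.01 and the others at 1.30. The submitters' processing notes name cutadapt, Bowtie2, SAMtools, MACS2, deepTools and the build hg38, and the versions are not given in the sources used here. A deposited series-wide list of 48095 HNRNPU intervals of 400 bp was used for positions only.

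Scores were ranked within each list, with ties at their mean rank, and a gene took the highest percentile in its window. Groups and repeat numbers follow the sample titles, and the antibody of the shLUC histone lists follows the list names, with the titles as an alternative. A gene was called where the libraries of the 2 groups did not overlap. Exact two-sided permutation tests were run on every gene with a summit, with 15 assignments for 4 against 2 and 70 for 4 against 4, and adjusted by the Benjamini-Hochberg method over all such genes. The share of all genes or sites called the same way is the background. Transcription starts come from the RefSeq promoter table, which holds for DNMT3B only a start inside the annotated gene. All 10 genes are named. The genes, lists and windows were chosen with earlier results of these data known. The steps were tested on simulated lists in which every summit of 200 gene windows was removed. That checks the code and does not show how smaller changes would be called. The steps were run in Python 3.11.15 with numpy 2.4.6, pandas 2.3.3 and scipy 1.17.1. Read depth is unknown, so no counting interval is given.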

Additional observations from a re-analysis of the deposited data

Results flagged for a closer look

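Among 20 groups of 4 shHNRNPU libraries (10 genes, H3K4me1 and H3K27ac), 3 had a library far from the other 3 by Dixon's test, where chance gives about 1 group in 20. CD24 had no H3K4me1 summit in shHNRNPU#1 repeat 1 (level 0.0), against 76.75 to 87.13 in the other 3. DNMT3B had an H3K4me1 level of 99.93 in shHNRNPU#2 repeat 1, against 99.91 in the others. ZIC5 had an H3K27ac level of 71.66 in shHNRNPU#2 repeat 1, against 89.0 to 90.05, a value read from the ZIC2 start.

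At 2 of the 10 genes the H3K4me1 percentiles of both shHNRNPU#1 libraries lay below, and those of both shHNRNPU#2 libraries above, both shLUC libraries, beside 3.56% of all genes. At ZIC2 the mean difference from shLUC was −3.03 with shHNRNPU#1 and 2.85 with shHNRNPU#2. At SFRP2 it was −10.92 and 3.24. By rank from the top neither gene kept this split. The H3K4me1 lists held 147145 and 152096 summits with shHNRNPU#1 and 174625 and 214333 with shHNRNPU#2, and neither the part of list length nor the difference between the hairpins was tested.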

How the results depend on the processing

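Counts are of genes or sites at which the groups did not overlap. Where no share of all genes or sites is given for a setting, here or above, its count shows only how the calls moved. Such a count is not a result about these genes. The antibody names of the shLUC libraries moved most values. By title H3K4me1 was called at 6 genes in place of 1 and H3K27ac at 8 in place of 0, the H3K4me1 difference at DNMT3B turned to 1.39, and the sites of a single condition rose to 51 for H3K4me1 and 56 for H3K27ac. By log2 rank H3K4me1 was called at 0 genes, H3K27ac at 1 (OTX2, higher, where a library with no summit takes a rank set by its list length) and H3K27ac against H3K4me1 at 5, 3 lower and 2 higher in place of 5 and 1. With scores of at least 10 these were 0 and 1 (SALL2, lower) and the median POLIIS2P difference was 1.70. In a window of 5 kb H3K27ac was called at 2 (THY1 and SALL2, lower). With 1 hairpin at a time H3K4me1 was called at 4 genes with either and H3K27ac at 3 with either, beside 31.8% to 43.3% of all genes. Within 1000 bp of a start, added after the data were seen, the counts were 0 and 2. Sites chained at 500 bp gave 1 H3K4me1 site, and the 20000 strongest summits gave 0 H3K4me1 and 3 H3K27ac sites. The cause was not tested.

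With the repeat number as a replicate block H3K27ac was called at 1 gene (CD24, lower) and H3K4me1 at 1, the joined sets at 0, and H3K27ac against H3K4me1 at 9 in place of 6. No share of all genes is given with this block, so these counts are not a result about these genes. Repeat 1 minus repeat 2 correlated between groups by −0.02 to 0.03 across genes. The levels are ranks within a list, so these values cannot show whether libraries of the same number shared a culture or batch.

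Leaving out 1 library gave 1 to 4 genes for H3K4me1, 0 to 4 for H3K27ac, 3 to 15 H3K4me1 sites, 2 to 18 H3K27ac sites, 0 to 1 genes for the joined sets, 6 to 7 for the marks against each other and a median POLIIS2P difference of 0.10 to 0.50. Without shLUC repeat 1 the counts were 4 genes for H3K4me1, 4 for H3K27ac, 15 and 18 sites and 1 joined gene, and 0.10 for POLIIS2P. Without shLUC repeat 2 they were 3, 3, 12 and 6. Without shHNRNPU#1 repeat 1 they were 2 for H3K4me1, 7 and 2 sites and 1 joined gene, without shHNRNPU#1 repeat 2 1 for H3K27ac and 2 H3K27ac sites, without shHNRNPU#2 repeat 1 2 for H3K4me1, 1 for H3K27ac and 2 H3K27ac sites, and without shHNRNPU#2 repeat 2 1 for H3K27ac and 5 and 4 sites. Leaving out an shLUC library leaves 1 of each histone antibody, so the groups separate more easily at any gene. No share of all genes or sites is given with a library left out, so these counts are not a result about the 10 genes. With 2 shLUC libraries the smallest p is 0.0667, so no gene could pass 0.05, and a p above it does not show that levels were equal. The count of HNRNPU sites was 6 to 10 of 10 over its alternatives.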
